A study of Saccharomyces cerevisiae with 32 samples.

Results

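The genes described here encode the proteins of the large subunit of the cytosolic ribosome of budding yeast. They are the genes whose standard symbol is *RPL* followed by a number and an optional copy letter, without the mitochondrial *MRPL* genes, together with the P stalk genes *RPP0*, *RPP1A*, *RPP1B*, *RPP2A* and *RPP2B*. By this rule 79 of the 7036 genes in the count table were members, and all 79 passed the filter on low counts that left 4625 genes. They form 45 families, 34 of them with a copy A and a copy B and 11 with a single copy, on 14 chromosomes, and 51 of the 79 have an intron in the coding sequence. The libraries came from haploid *S. cerevisiae* BY4742 (*MATα his3Δ1 leu2Δ0 lys2Δ0 ura3Δ0*, shared by all groups), either as wild type (*wt*) or with one gene deleted: *TMA46* in *tma46Δ*, *YGR054W*, which encodes eIF2A, in *eif2aΔ*, and *STM1* in *stm1Δ*. Each strain had 4 replicates, and each replicate gave one RNA-Seq library, which measures mRNA abundance, and one Ribo-Seq library, which counts the mRNA fragments protected by ribosomes, 32 libraries in all. The 3 deletion strains came from the Yeast Gene Deletion Collection, and the sources used here do not say that more than one clone of each was studied. The study gives growth in YPD to exponential phase, whereas the labels name both YPD and SD media and do not assign either to a library.

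Ribosomal protein genes are among the most strongly expressed genes of growing yeast. Most were kept as a pair of copies after an ancient duplication of the genome, and the copies often encode the same or nearly the same protein. Their transcription is driven largely by Rap1, Fhl1, Ifh1 and Sfp1, rises with growth and falls together in stress, when genes of the general stress response rise. The large subunit carries the peptidyl transferase centre, the exit tunnel for the new chain and the P stalk, which recruits and activates translation factors. Stm1 is a ribosome-associated protein that clamps idle ribosomes, Tma46 is a partner of the GTPase Rbg1, and eIF2A is a protein first described as an initiator tRNA-binding factor.

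The copies differ so little in some pairs that short reads can seldom be assigned to one of them. The coding sequences of *RPL41A* and *RPL41B*, and the first 120 bases of those of *RPL35A*, *RPL35B*, *RPL9A* and *RPL9B*, show how much sequence tells a pair apart, with capitals at the bases that differ between the copies. *RPL39* is shown for its composition, with capitals at the codons for lysine and arginine. All are RefSeq sequences of the R64 genome, 5′ to 3′ on the coding strand, and the coordinates are those of the whole gene.
RPL41A (chrIV:130407-130484, minus strand): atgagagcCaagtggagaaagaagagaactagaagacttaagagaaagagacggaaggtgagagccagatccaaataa
RPL41B (chrIV:221724-221801, minus strand): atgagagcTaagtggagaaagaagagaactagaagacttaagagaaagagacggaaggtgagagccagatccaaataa
RPL35A (chrIV:117664-118517, plus strand, one intron removed): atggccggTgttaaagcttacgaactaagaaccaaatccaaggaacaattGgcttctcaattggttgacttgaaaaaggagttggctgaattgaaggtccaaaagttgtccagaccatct
RPL35B (chrIV:217600-218367, plus strand, one intron removed): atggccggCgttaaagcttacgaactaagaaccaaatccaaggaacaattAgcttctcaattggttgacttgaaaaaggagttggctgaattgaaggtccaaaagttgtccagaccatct
RPL9A (chrVII:227754-228329, minus strand): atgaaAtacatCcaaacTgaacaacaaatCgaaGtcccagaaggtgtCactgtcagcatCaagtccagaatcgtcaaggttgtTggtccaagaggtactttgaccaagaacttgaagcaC
RPL9B (chrXIV:499681-500256, plus strand): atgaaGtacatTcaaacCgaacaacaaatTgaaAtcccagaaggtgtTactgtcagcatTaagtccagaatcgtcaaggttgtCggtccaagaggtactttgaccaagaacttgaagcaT
RPL39 (chrX:75933-76474, plus strand, one intron removed): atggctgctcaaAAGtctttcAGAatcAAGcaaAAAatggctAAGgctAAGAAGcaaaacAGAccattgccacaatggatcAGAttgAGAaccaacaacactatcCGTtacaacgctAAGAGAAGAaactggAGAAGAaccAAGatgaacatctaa
Counted from the first base of the start codon and written as the base of copy A, the position and the base of copy B, the *RPL41* copies differed at C9T alone. The *RPL35* copies, of 363 bases, differed at T9C, G51A and, past the stretch shown, T354C. The *RPL9* copies differed at 36 of 576 positions. In *RPL39*, 17 of the codons in 156 bases are for lysine or arginine.

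An RNA-Seq library held 4215500 to 6717295 counts on genes, of which 487681 to 823867 fell on the members. A Ribo-Seq library held 1457024 to 4122370, of which 155682 to 459576 fell on the members. The deleted genes followed the labels, with 0 or 1 count of *TMA46* in the 4 *tma46Δ* RNA-Seq libraries against 801 to 1101 in *wt*, 1 or 2 counts of *YGR054W* in *eif2aΔ* against 1082 to 1558, and 0 to 2 counts of *STM1* in *stm1Δ* against 10653 to 16316. The labels place the replicates in 7 batches. For *wt*, replicates 1 to 4 came from batches 1 to 4. Replicates 1 to 3 of *tma46Δ* came from batches 1 to 3 and replicate 4 from batch 5. The *eif2aΔ* replicates came from batches 3 to 6 in order. Of *stm1Δ*, replicate 1 was in batch 6 and replicates 2, 3 and 4 made up batch 7, so *stm1Δ* and *wt* shared no batch. In the fits below, which have batch as a term, the *stm1Δ* contrast therefore runs through the one pair of libraries in batch 6, *stm1Δ* replicate 1 and *eif2aΔ* replicate 4. Nothing in the labels says that the replicates of a strain were separate cultures, and the p-values measure only the spread between these samples.

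In *wt* the large subunit genes stood far above the typical gene. Their median level per kilobase of coding sequence, in CPM (counts scaled to the total on genes in the library), was 3205 in RNA-Seq, against 57.6 for the median of 4617 tested genes with a coding sequence. In Ribo-Seq it was 2760, against 39.0. In RNA-Seq *RPP2B* (P stalk) had the highest level at 6682 ± 367 CPM per kilobase (SD, n = 4), followed by *RPL30* at 6624 ± 202 and *RPL10*, whose protein joins the subunit late in its maturation, at 6542 ± 250. These 3 neighbours differed by less than their SD. In Ribo-Seq the order was *RPL39* at 9253 ± 379, *RPL32* at 7551 ± 335 and *RPL10* at 7459 ± 170, and the last pair again differed by less than the SD. At the other end, *RPL15B* had 117 ± 10.1 CPM per kilobase in RNA-Seq and 116 ± 16.6 in Ribo-Seq. *RPL22B* had 395 ± 38.5 in RNA-Seq and 324 ± 24.4 in Ribo-Seq.

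**Figure D1:**
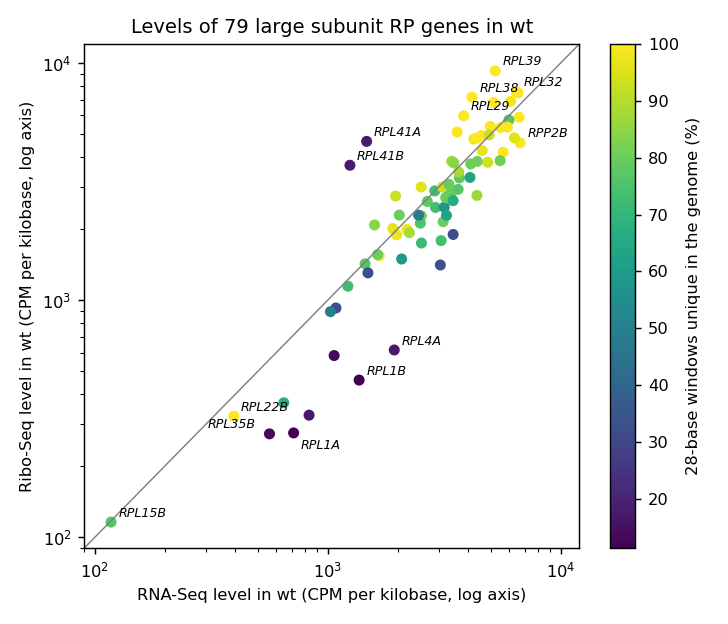
Mean RNA-Seq level (horizontal axis) and Ribo-Seq level (vertical axis) of the 79 genes over the 4 *wt* libraries of each assay, in CPM per kilobase of coding sequence on log axes, with the grey line at equality and the colour giving the percent of 28-base windows of the coding sequence that occur once in the genome. *RPL15B* lies at the lower left at 117 and 116, and *RPL41A* and *RPL41B* lie above the line.

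Several other members with low levels have few bases that set them apart from their copy. *RPL35B* had 561 ± 35.1 CPM per kilobase in RNA-Seq and 273 ± 56.5 in Ribo-Seq. *RPL1A* had 275 ± 34.8 in Ribo-Seq. The deposited counts hold only reads that map to one place in the genome, and of the 28-base windows of the coding sequence only 11.3% were unique in *RPL1A* and *RPL1B*, 13.7% in *RPL35A* and *RPL35B*, 17.1% in *RPL4A* and *RPL4B* and 17.6% in *RPL41A* and *RPL41B*. *RPL15B* (76.2%) and *RPL22B* (100%) had low levels with most windows unique. When the counts were divided by the number of unique windows, *RPL41A*, *RPL1B* and *RPL4A* took the first 3 ranks in RNA-Seq, and the median of the members was 4815 CPM per 1000 unique windows for RNA-Seq, with 4162 for Ribo-Seq. The same 28-base windows were used for both assays. RNA-Seq reads of another length would be unique at another number of positions, so these RNA-Seq ranks depend on that choice and do not rank mRNA abundance.

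Ribosome occupancy in *wt* was compared within the 4 samples as Ribo-Seq against RNA-Seq. Of the 79 members, 54 were higher in Ribo-Seq at an FDR below 0.05, against 34.6% of all 4625 genes, and 11 were lower, against 39.9% (edgeR, Benjamini-Hochberg adjusted). Higher and lower are relative to the TMM scaling factors of edgeR, not to CPM. In CPM the share of the members was lower in Ribo-Seq, at 0.908 to 0.969 of the RNA-Seq share of the same *wt* sample. *RPL30*, for one, had 6624 CPM per kilobase in RNA-Seq and 5893 in Ribo-Seq but a log2 ratio of 0.27. The median log2 ratio of the members was 0.30, and that of all genes -0.06. The 56 genes of the small subunit were similar, with a median of 0.24, 34 higher and 11 lower at the same threshold. The highest values belonged to the shortest genes. *RPL41A* and *RPL41B*, whose product is a peptide of 25 residues at the subunit interface, were at 2.01 ± 0.16 (SE) and 1.92 ± 0.13, and *RPL39*, which lines the exit tunnel, was at 1.26 ± 0.05. *RPL38* was at 1.22 ± 0.06 and *RPL29*, a non-essential protein of the subunit surface, at 1.08 ± 0.05. Among the single-copy genes *RPL25*, whose protein sits at the tunnel exit, was at 0.84, *RPL32* at 0.67, *RPL10* at 0.63 and *RPL28* at 0.61. *RPL5*, whose protein binds the 5S rRNA, was at 0.58. The lowest values were those of *RPL4A* (-1.21 ± 0.06), *RPL1B* (-1.14 ± 0.07) and *RPL1A* (-0.94 ± 0.07), all with few unique windows. *RPL41A* and *RPL41B*, at the other end, also have few unique windows. In each copy these are 9 of 51 windows, the ones that span the differing base at position 9. For 28-base reads the log2 ratios of both copies thus rest on the start of the coding sequence. Their *wt* Ribo-Seq levels varied widely between libraries, at 4662 ± 2300 and 3698 ± 1823 CPM per kilobase (SD, n = 4).

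The split by unique windows was plain. The 12 members with under 40% unique windows had a median log2 ratio of -0.52, the 24 members from 40% to below 80% a median of 0.20, and the 43 members at 80% or more a median of 0.39, with 35 of the 43 higher at the FDR threshold and 1 lower. Across the 79 genes Pearson's r between the log2 ratio and the percent of unique windows was 0.44 and Spearman's rho 0.54, and r was 0.76 without *RPL41A* and *RPL41B*. The genes share the same 8 libraries, so these values describe the set and carry no p-value. Within the 43 well-mapped members the log2 ratio had an r of -0.12 with log10 coding length. The part of unique mapping in the comparison of the assays was not tested further.

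**Figure D2:**
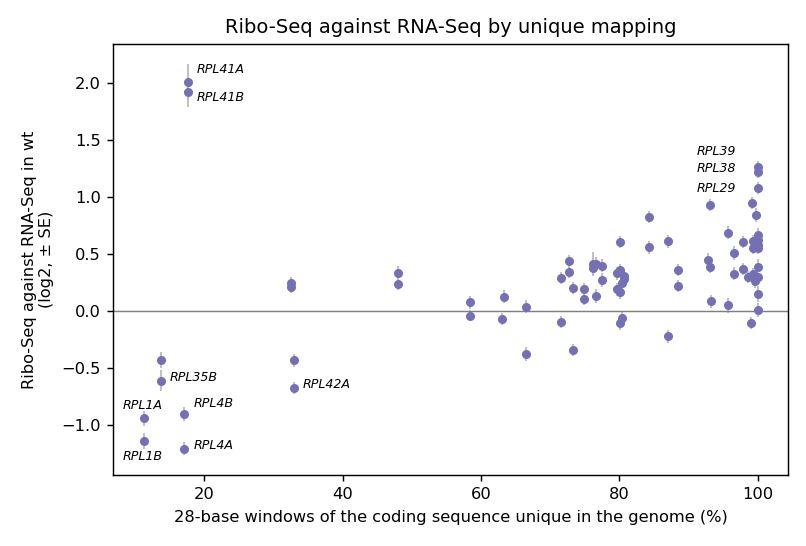
Log2 ratio of Ribo-Seq to RNA-Seq in *wt* (vertical axis, point and SE from edgeR, 8 libraries) against the percent of 28-base windows of the coding sequence that occur once in the genome (horizontal axis), one point per gene. Apart from *RPL41A* and *RPL41B* at 2.01 and 1.92, the 12 genes below 40% include the 4 lowest values, down to -1.21 for *RPL4A*.

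The copies of a pair were seldom counted equally. In *wt* RNA-Seq the share of copy A in the counts of its pair ran from 23.0 ± 0.90% for *RPL36* and 28.5 ± 0.53% for *RPL8* to 92.0 ± 0.73% for *RPL22* and 98.1 ± 0.13% for *RPL15* (SD, n = 4). *RPL13* (31.4 ± 0.70%) was next in order at the low end. In Ribo-Seq the same pairs were at 28.6%, 32.6%, 93.8%, 98.0% and 35.4%. Between the assays the share of copy A was higher in Ribo-Seq for *RPL37* (43.9 ± 1.66% against 58.2 ± 1.06%) and *RPP2* (41.5 ± 0.37% against 51.0 ± 1.73%) and lower for *RPL16* (38.0 ± 0.43% against 28.1 ± 0.59%) and *RPL43* (71.5 ± 1.04% against 61.7 ± 0.82%). These 4 pairs were picked after their values were seen, and no test was made.

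The members took 10.4% to 13.6% of all counts on genes in an RNA-Seq library, and the range for Ribo-Seq was 10.4% to 12.6%. In RNA-Seq the share was 11.6% to 12.4% in *wt* (11.97 ± 0.34%, SD, n = 4) and 12.2% to 12.5% in *tma46Δ*. In *eif2aΔ* it was 11.4% to 12.02% in 3 replicates and 13.6% in replicate 4, the highest of the 16 libraries. In *stm1Δ* it was 10.9%, 11.5%, 10.4% and 10.6% in replicates 1 to 4, below each *wt* library. In Ribo-Seq the shares of the strains overlapped, with 11.05% to 11.2% in *wt* and 10.7% to 12.6% in *stm1Δ*. The share in Ribo-Seq divided by the share in RNA-Seq of the same sample was 0.908 to 0.969 in *wt*, 0.885 to 0.992 in *tma46Δ*, 0.867 to 0.975 in *eif2aΔ* and 1.00 to 1.09 in *stm1Δ*. The 4 *stm1Δ* samples thus had the 4 highest ratios of the 16, and for the 3 samples of batch 7 strain cannot be told apart from batch. In batch 6 the ratio was 1.02 in *stm1Δ* replicate 1 and 0.894 in *eif2aΔ* replicate 4.

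**Figure D3:**
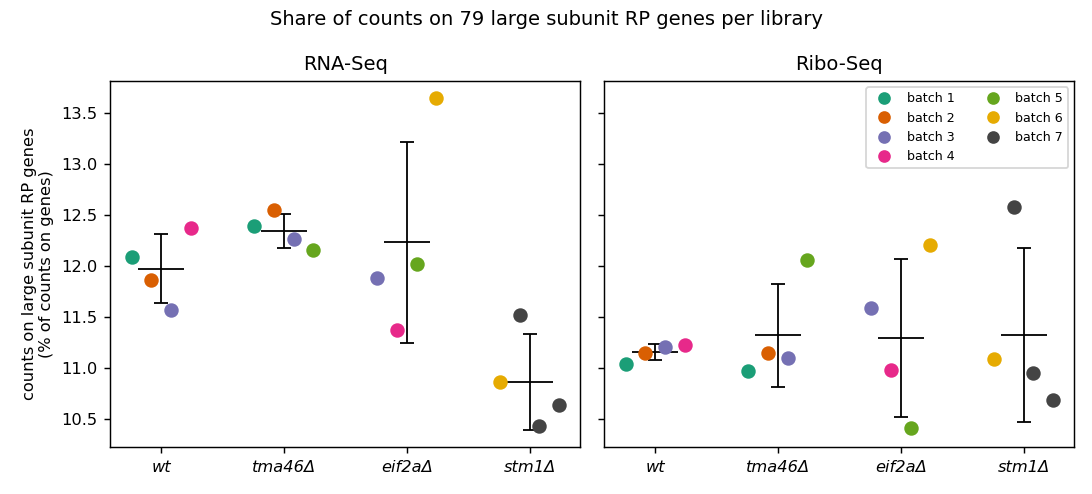
Percent of the counts on genes that fell on the 79 large subunit genes (vertical axis) in each RNA-Seq library (left) and Ribo-Seq library (right), by strain, coloured by batch, with the mean and SD of 4 replicates in black. The vertical axis does not start at 0. In RNA-Seq the *stm1Δ* libraries (10.4% to 11.5%) lie below those of *wt*, and *eif2aΔ* replicate 4 lies above all others at 13.6%.

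In *tma46Δ* no member passed the threshold in the fit over all strains. The median log2 fold change of the members was 0.05 for mRNA and 0.02 for footprints, with median SEs of 0.09 and 0.08. For ribosome occupancy (RO, the Ribo-Seq change relative to the RNA-Seq change) it was -0.03. No member passed an FDR of 0.05 by edgeR in any of the 3 (0.0216%, 0.0216% and 0% of all genes did), none had an unadjusted p below 0.05 (1.62%, 3.68% and 1.3% of all genes did), and DESeq2 called none in RNA-Seq or Ribo-Seq. Of the 79 members 73 had a value above 0 in RNA-Seq, where 55.1% of all genes were below 0, 57 in Ribo-Seq (50% below 0) and 15 for RO (50.1% below 0). The RNA-Seq values ran from -0.05 for *RPL15B*, with *RPL35B* and *RPL41A* next, to 0.14 ± 0.31 for *RPL41B*, with *RPL43B* and *RPL33B* before it. The Ribo-Seq values ran from -0.15 ± 0.16 for *RPL41B*, with *RPL41A* and *RPL33A* next, to 0.18 ± 0.10 for *RPL22B*, with *RPL35B* and *RPL14B* before it. For RO they ran from -0.29 ± 0.39 for *RPL41B*, with *RPL33A* and *RPL20B* next, to 0.19 ± 0.12 for *RPL35B*, with *RPL15B* and *RPL35A* before it. *RPL3*, whose protein reaches the peptidyl transferase centre, is an example from above the median of the RNA-Seq differences. Its RNA-Seq values were 6595, 6506, 6190 and 6372 CPM in *wt* and 6636, 6745, 6861 and 6678 CPM in *tma46Δ*. All 4 *tma46Δ* libraries were above the 4 of *wt*, as for 9 members in all (0.714% of all genes), and the fitted log2 difference was 0.09 ± 0.11. No member had all 4 below (0.995%), and in Ribo-Seq none was all below or all above (1.12% and 1.32%). In the 3 batches that hold both strains, the median log2 ratio of the members was 0.02, 0.09 and 0.13 for mRNA, with -0.03, -0.01 and -0.03 for footprints. For footprints 57, 46 and 56 of the 79 members were lower in *tma46Δ* in these batches, so the sign was opposite to that of the fitted median.

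The fit on the libraries of *wt* and *tma46Δ* alone gave other medians. Replicate 4 of each strain was alone in its batch there. With batch as a term, the estimates therefore rest on the batches that hold both strains, whose ratios are given above. The RO median was -0.12, with 77 of 79 members below 0 and 39 lower at an unadjusted p below 0.05, against 4.04% of all genes. None of them passed an FDR of 0.05 by edgeR. In Ribo-Seq the median turned to -0.018, with 54 members below 0, 9 lower at an unadjusted p below 0.05 (5.58% of all genes) and 2 called lower (1.64% of all genes in either direction). The RNA-Seq median was 0.09, with no call.

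The members are rich in lysine and arginine, which made up a median of 20.5% of their residues against 11.9% over the tested genes. The lowest content was that of *RPP1A* and *RPP1B* (4.72%) and *RPP2A* (6.60%), and the highest that of *RPL41A* and *RPL41B* (68%) and *RPL39* (33.3%). Across 4616 genes, without *TMA46*, the RO change in *tma46Δ* had an r of 0.12 with this content, and across the 79 members an r of -0.28 (Spearman's rho 0.16 and -0.08). The genes share the same 32 libraries, so these are descriptions. The values across members include *RPL41A* and *RPL41B*, whose content was far above the rest, and *RPL41B* had the lowest RO change.

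In *eif2aΔ* most members had fitted values slightly below 0, and 1 passed the threshold. Their median log2 fold change was -0.06 for mRNA, -0.11 for footprints and -0.05 for RO. For mRNA 62 members were below 0, with 71 for footprints and 53 for RO, where 50%, 49% and 46% of all genes were. Without a batch term the RNA-Seq and Ribo-Seq medians were 0.012 and -0.0097. The RO median turned to 0.070 in the fit on *wt* and *eif2aΔ* alone, with 22 members below 0, and to 0.058 without *eif2aΔ* replicate 3, with 21 below 0. In the 2 batches with both strains the median log2 ratio of the members was 0.06 and -0.19 for mRNA, with -0.0010 and -0.08 for footprints. *RPL29* was the only member past the threshold, in Ribo-Seq alone (-0.34 ± 0.08, FDR 0.0475 by edgeR), where 1.84% of all genes were called. No member was called in RNA-Seq or RO, where 0.454% and 0.0432% of all genes were, and for RO none had an unadjusted p below 0.05 (3.31% of all genes). At an unadjusted p below 0.05, RNA-Seq had 4 members lower (7.7% of all genes) and Ribo-Seq 9 (7.83%). DESeq2 called no member in RNA-Seq. *RPL29* read 997, 1184, 1042 and 1080 CPM in the Ribo-Seq libraries of *wt* and 931, 874, 959 and 1132 CPM in those of *eif2aΔ*. The groups overlapped through *eif2aΔ* replicate 4. In the 2 batches that *eif2aΔ* shares with *wt*, its log2 ratio was -0.20 and -0.35. Without a batch term the value was -0.17 (FDR 0.471). The call was lost in 11 of the 16 fits that left out 1 sample, with FDRs of 0.0716 to 0.406. These were the fits without any one *wt* or *tma46Δ* replicate, without *eif2aΔ* replicate 2 or 3 and without *stm1Δ* replicate 3. With *wt* and *eif2aΔ* alone the value was -0.27 (FDR 0.00604). That fit rests on the 2 batches that hold both strains, with 1 library of each strain per batch. It draws on the same library pairs as the ratios of -0.20 and -0.35, so its small FDR is not separate evidence for the call. ComBat-seq counts called 8 members lower in each assay, where 20.7% of all genes in RNA-Seq and 17.8% in Ribo-Seq were called in either direction. All 4 *eif2aΔ* libraries lay above those of *wt* for 2 members in RNA-Seq, *RPL6B* among them (3.42% of all genes), and for *RPL13A* and *RPL4B* in Ribo-Seq (5.49%). They lay below for no member in RNA-Seq (2.49%) and for *RPL37B* in Ribo-Seq (4.15%).

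The other *eif2aΔ* extremes were of similar size and were not called. In RNA-Seq they were *RPL18B* (-0.31 ± 0.11, FDR 0.222), *RPL35B* (-0.28 ± 0.08, FDR 0.136) and *RPL29* (-0.28 ± 0.13, FDR 0.355) at the low end, with *RPL2B* (0.06) and *RPL14B* (0.04) among those at the high end. *RPL18B* read 358, 383, 353 and 356 CPM in *wt* RNA-Seq and 327, 287, 277 and 359 CPM in *eif2aΔ*, so replicate 4 again lay within the *wt* range. In Ribo-Seq *RPL41B* (-0.32 ± 0.18) and *RPL37B* (-0.32 ± 0.12) followed *RPL29*, and *RPL4B* (0.11 ± 0.11), *RPL11B* (0.06) and *RPL26A* (0.04) were highest. The 5 P stalk genes lay between -0.09 and -0.0026 in Ribo-Seq, with a median of -0.01.

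In *stm1Δ* the fitted RNA-Seq values were below *wt* for all 79 members, while none passed the threshold. The log2 fold changes ran from -0.95 to -0.15 with a median of -0.58, against 0.01 for all genes, of which 49.5% were below 0. At an FDR of 0.05 edgeR called 0 members (0.0649% of all genes were called) and DESeq2 called 45 (4.65% of all genes), and at an unadjusted p below 0.05 edgeR had 69 members lower, against 12.8% of all genes. The size rests on the library pair of batch 6, where 79 of 79 members were lower in *stm1Δ* replicate 1 than in *eif2aΔ* replicate 4, the library with the highest share, by a median log2 ratio of -0.54. Without a batch term the median was -0.25, with 76 of 79 members below 0 and 24 called lower, where 9.66% of all genes were called. Leaving *eif2aΔ* replicate 4 out of that fit gave -0.25 with 52 called (13.3% of all genes), and leaving out *stm1Δ* replicate 1 gave -0.24 with 3 called (6.96%), both chosen after seeing the data. In the fit with batch, leaving out *stm1Δ* replicate 2 raised the calls from 0 to 68, and those among all genes to 12.5%. The RNA-Seq CPM of the 4 *stm1Δ* libraries were all below the 4 of *wt* for 28 members and all above for none, against 4.54% and 15.2% of all genes.

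Low fitted values ran through each of the structural groups compared. The medians were -0.63 for the 5 P stalk genes, -0.63 for *RPL5*, *RPL11A* and *RPL11B*, whose proteins form the 5S rRNA particle, -0.60 for the 8 exit tunnel genes, -0.59 for the 7 genes at the bridges between the subunits, -0.57 for *RPL12A* and *RPL12B* at the base of the stalk, and -0.49 for *RPL40A* and *RPL40B*, which are made as fusions with ubiquitin. Among the single-copy genes *RPL3* was at -0.51, *RPL10* at -0.53, *RPL28* at -0.58, *RPL38* at -0.58, *RPL32* at -0.61, *RPL25* at -0.62, *RPL39* at -0.65, *RPL30* at -0.67 and *RPL29* at -0.89. *RPL5* read 3981, 4019, 3815 and 3799 CPM in *wt* and 3219, 3655, 2996 and 2914 CPM in *stm1Δ*. *RPP0*, the core of the P stalk, read 5590, 5563, 5303 and 5693 CPM in *wt* and 4914, 5327, 4802 and 4463 CPM in *stm1Δ*. *RPL5* did not overlap between the strains, and *RPP0* overlapped through *stm1Δ* replicate 2.

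The lowest fitted RNA-Seq values were those of *RPL41A* (-0.95 ± 0.57, FDR 0.349), *RPL29* (-0.89 ± 0.24, FDR 0.0831) and *RPL35A* (-0.81 ± 0.17, FDR 0.0653). *RPL35A*, whose protein sits at the tunnel exit, read 356, 377, 420 and 392 CPM in *wt* and 322, 353, 338 and 340 CPM in *stm1Δ*, with no overlap. Its value without a batch term was -0.31 (FDR 0.0392). *RPL41A* turned to 0.17 without a batch term, and its libraries read 94.1, 94.3, 110 and 266 CPM in *stm1Δ* against 107 to 130 in *wt*. *RPL31B* (-0.37), *RPL15B* (-0.16 ± 0.18) and *RPL9B* (-0.15 ± 0.16) were the members nearest to 0.

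In Ribo-Seq of *stm1Δ* the fitted values were also low but depended on the batch term. The median log2 fold change was -0.33 with batch, 77 of 79 members below 0 (48.8% of all genes were), and -0.01 without it. In batch 6, 75 of 79 members were lower in *stm1Δ* replicate 1 than in *eif2aΔ* replicate 4, by a median log2 ratio of -0.22. No member was called by edgeR (0.411% of all genes were) and 1 by DESeq2 (0.757%), and 21 members were lower at an unadjusted p below 0.05, against 7.74% of all genes. *RPL29* (-0.55 ± 0.16, FDR 0.127), *RPL9A* (-0.55 ± 0.21) and *RPL20B* (-0.53 ± 0.21) were lowest, and *RPL9B* (0.21), *RPL41A* (0.10) and *RPL41B* (-0.05) highest. No member had all 4 *stm1Δ* libraries below those of *wt* and 5 had all 4 above (*RPL9B*, *RPL14B*, *RPL26B*, *RPL36A* and *RPL36B*), where 3.94% and 10.3% of all genes did. *RPL10* read 4880, 4918, 4939 and 5134 CPM in *wt* and 4638, 4998, 4723 and 4571 CPM in *stm1Δ*, and the groups overlapped.

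The RO change in *stm1Δ* was above 0 for 75 of 79 members, where 48.1% of all genes were below 0. The median was 0.21 with batch and 0.24 without it, against 0.01 for all genes. None was called by edgeR (0% of all genes were), and 1 member, higher, had an unadjusted p below 0.05 (5.51% of all genes in either direction). That gene, *RPP1B*, one of the acidic proteins of the P stalk, had an RO change of 0.60 ± 0.26 (FDR 0.880). Its RNA-Seq values were 1564, 1487, 1490 and 1687 CPM in *wt* and 1419, 1458, 1359 and 1448 CPM in *stm1Δ*, which did not overlap. Its Ribo-Seq values were 1198, 1385, 1111 and 1194 CPM in *wt* and 1242, 1252, 1248 and 1350 CPM in *stm1Δ*, which did. *RPL41A* (1.00, and -0.20 without a batch term) and *RPL18B* (0.52) were the other high values. The lowest RO changes were those of *RPL20B* (-0.05), *RPL2B* (-0.04) and *RPL31B* (-0.04), which were above 0 without a batch term. ComBat-seq counts called 50 members higher for RO, where 46.2% of all genes were called in either direction.

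**Figure D4:**
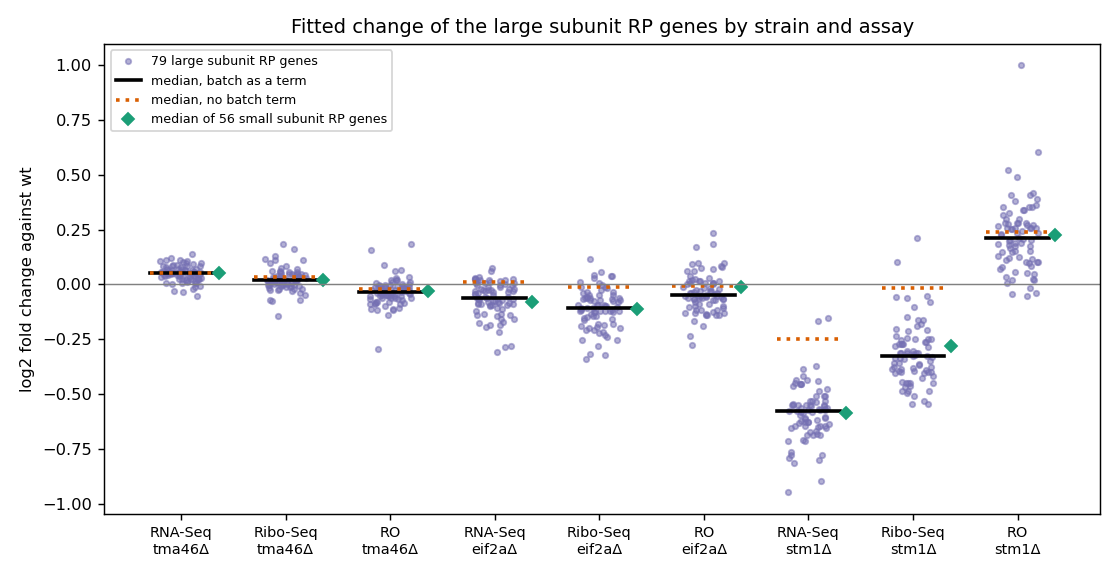
Fitted log2 fold change against *wt* (vertical axis) of the 79 large subunit genes in RNA-Seq, Ribo-Seq and RO for each strain, one point per gene, with the median from the fit with batch (black line), the median without a batch term (orange dotted line) and the median of the 56 small subunit genes (green diamond). The points lie near 0 in *tma46Δ* and *eif2aΔ*, and the *stm1Δ* RNA-Seq points lie between -0.95 and -0.15 with medians of -0.58 and -0.25.

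The copies of *RPL9*, which encode the protein uL6, differed from each other in *stm1Δ*. The pair was picked after its values were seen. *RPL9A* read 1676, 1643, 1642 and 1668 CPM in *wt* RNA-Seq and 1398, 1476, 1282 and 1263 CPM in *stm1Δ*. *RPL9B* read 654, 639, 655 and 685 CPM in *wt* Ribo-Seq and 786, 909, 951 and 903 CPM in *stm1Δ*, above all 12 Ribo-Seq libraries of the other strains, which reached 722 CPM. In RNA-Seq *RPL9B* was at 682 to 725 CPM in *wt* and 681, 760, 778 and 832 CPM in *stm1Δ*.

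The share of *RPL9A* in the pair was 70.2%, 70.5%, 70.6% and 69.7% in *wt* RNA-Seq and 67.2%, 66.01%, 62.2% and 60.3% in *stm1Δ*. In Ribo-Seq it was 70.8%, 72.0%, 72.7% and 70.9% in *wt* and 66.7%, 66.1%, 59.7% and 60.04% in *stm1Δ*. The *stm1Δ* libraries were the 4 lowest of 16 in each assay, and in batch 6 replicate 1 stood against 76.3% and 75.9% in *eif2aΔ* replicate 4. The fitted Ribo-Seq change of *RPL9B* was 0.21 ± 0.14 (FDR 0.471 by edgeR) with batch and 0.37 (FDR 0.00812) without it, while *RPL9A* was at -0.55 with batch. Over all 34 pairs, the share of copy A in *stm1Δ* lay outside the *wt* range in all 4 libraries for 8 pairs in RNA-Seq and 4 in Ribo-Seq, against 20.8% and 25% of the 24 small subunit pairs. For *eif2aΔ* it did so for 9 and 10 pairs, against 12.5% and 50%, and for *tma46Δ* for 0 and 1 pair, against 4.17% and 4.17%.

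**Figure D5:**
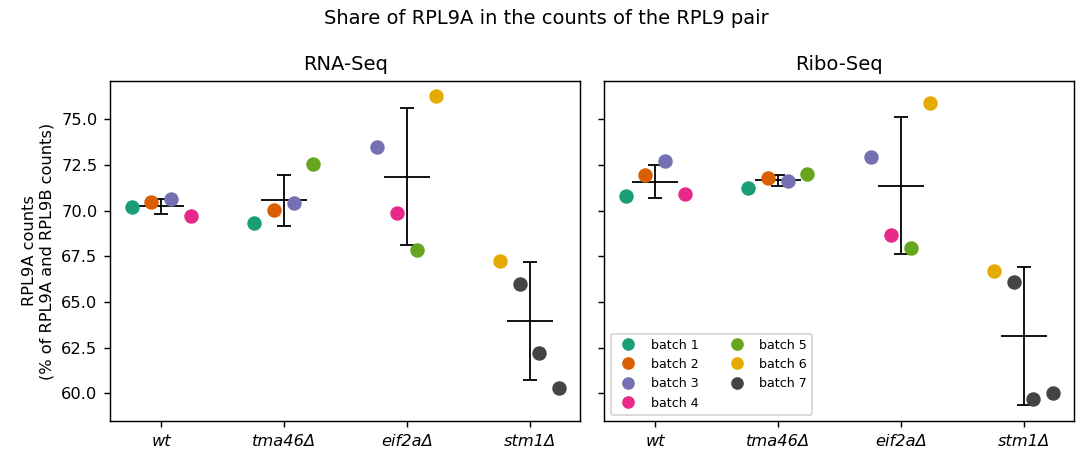
Counts of *RPL9A* as a percent of the counts of *RPL9A* and *RPL9B* (vertical axis, not starting at 0) in each RNA-Seq library (left) and Ribo-Seq library (right) by strain, coloured by batch, with the mean and SD of 4 replicates in black. The *stm1Δ* libraries (59.7% to 67.2%) lie below those of the other strains, of which the lowest is at 67.8%, in *eif2aΔ*.

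The small subunit genes gave nearly the same medians as the large subunit genes, in *stm1Δ* -0.58 for the RNA-Seq, -0.28 for the Ribo-Seq and 0.23 for the RO of 56 genes. The 34 genes of the mitochondrial large subunit were at -0.15 in *stm1Δ* RNA-Seq, with 1 lower at an unadjusted p below 0.05, and at 0.05 in Ribo-Seq, with none lower. For comparison, 12.8% of all genes were lower and 8.97% higher at this level in *stm1Δ* RNA-Seq, and 7.74% lower and 7.83% higher in Ribo-Seq. Of 14 late assembly and export factors of the large subunit, such as Nmd3, which adapts the subunit for export, 11 were lower at an unadjusted p below 0.05 in *stm1Δ* RNA-Seq, with a median of -0.50, and 3 in Ribo-Seq, with a median of -0.29. Of 5 chaperones that guard single ribosomal proteins, 3 were lower in each assay (medians -0.37 and -0.44). The 10 transcription factors and regulators of ribosomal protein genes had a median of 0.10 in RNA-Seq, with 3 higher, but of -0.29 in Ribo-Seq, with 3 lower. Their RO median was -0.41, with 9 of 10 below 0 and 1 lower. Beside Rap1, Fhl1, Ifh1 and Sfp1, this list holds Hmo1, Crf1, Tod6, Dot6, Stb3 and Sch9. Its medians therefore do not describe the factors named above alone. Of the 5 tested enzymes that methylate the proteins of the subunit, 1 was lower in RNA-Seq and none in Ribo-Seq. None of these genes was called in *stm1Δ* at an FDR of 0.05 by edgeR. These *stm1Δ* values come from the fit with batch as a term. Its contrast with *wt* runs through the only library pair of *stm1Δ* and *eif2aΔ* in a shared batch. Values without a batch term are not given for these lists, so their dependence on that pair was not tested. The lists were chosen with earlier results of these data known.

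Genes of the general stress response had fitted values above 0 in *stm1Δ* that rested on the batch 6 pair. Of 13 tested, all 13 were above 0 in *stm1Δ*, with an RNA-Seq median of 0.97 and a Ribo-Seq median of 1.20, 11 higher in each assay at an unadjusted p below 0.05 (8.97% and 7.83% of all genes), and 1 called in Ribo-Seq (0.411% of all genes in either direction). Without a batch term the medians were -0.015 and -0.079, with 5 of 13 above 0 in each assay, none higher at an unadjusted p below 0.05 and 1 lower, in RNA-Seq. That fit gave -0.14 and -0.16 without *stm1Δ* replicate 1 and -0.015 and -0.078 without *eif2aΔ* replicate 4, alternatives chosen after seeing the data. The share of counts on the 15 listed genes was 0.130% to 0.197% in *wt* RNA-Seq, and the Ribo-Seq range of *wt* was 0.209% to 0.291%. It was highest of all libraries of its assay in *stm1Δ* replicate 1 (0.214% and 0.334%) and lowest in *eif2aΔ* replicate 4 (0.0970% and 0.132%), the pair of batch 6. The other *stm1Δ* replicates lay within the *wt* range, with 0.152% to 0.181% for mRNA and 0.239% to 0.259% for footprints. In *tma46Δ* the same list had medians of -0.31 and -0.37 beside the members' 0.05 and 0.02. The part of these genes in the members' values was not tested.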

How the data were processed

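RNA-Seq and Ribo-Seq were analysed in 16 samples, as 32 libraries. Per the study's methods, mRNA was captured with oligo(dT) and footprints were made with RNase I and taken from the monosome fraction. Per the labels, cells were treated with cycloheximide shortly before they were harvested, and the study's methods name it only for the buffers. The authors trimmed reads with cutadapt 2.10, removed duplicate footprints and rRNA reads (the processing notes name Bowtie2 1.2.3), and counted uniquely mapped reads per gene on the sense strand with STAR 2.7.9a against R64. The deposited counts were used before any batch correction, and per-library tables of the same counts were not used further.

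A gene was kept when 4 or more libraries of each assay reached 10 CPM (4625 of 7036 genes). Counts were fitted with edgeR 4.0.16 in R 4.3.3 (TMM factors, quasi-likelihood F test, two-sided, batch and strain as terms, all strains of an assay together), and RO as the interaction of strain and assay over 32 libraries. Ribo-Seq against RNA-Seq in *wt* had the sample as a term. P-values were Benjamini-Hochberg adjusted over all genes tested with a threshold of 0.05, and standard errors were taken from the fold change and F. The fits were tested on simulated data. Alternatives used no batch term, a replicate block, ComBat-seq (sva 3.50.0), RLE factors, TMM factors without ribosomal protein genes, no filter, *wt* and one strain only, DESeq2 1.42.0 and single samples left out. Replicate libraries differed beyond sampling noise (chi-square per degree of freedom of 2.46 or more), so none was counted as a duplicate.

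Of the identifiers, 5956 matched RefSeq R64, which gave coordinates, sequences, unique 28-base windows and, by translation, lysine and arginine content. Named genes were the 3 highest and 3 lowest members per contrast and measure, every called member, the P stalk, 5S particle and single-copy genes, and the pairs with extreme shares. The members and lists were chosen with earlier results of these data known. The *RPL9* pair and the comparison of 4 pairs between assays were chosen after their values were seen. One *RPL* family, and the values of some other members that the rule would name, are not reported here.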

Additional observations from a re-analysis of the deposited data

Results flagged for a closer look

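In 172 groups of 4 libraries (among them the share of the members and the members given per library, which were chosen after their values were seen), the gap between the extreme library and its nearest neighbour was divided by the range of the group. In 11 groups the ratio was above Dixon's critical value for 4 values, which chance alone passes in about 1 group in 20. The *stm1Δ* RNA-Seq libraries gave 4 of them, all through replicate 4 and all in members with coding sequences of at most 180 bases. *RPL41A* read 94.1, 94.3, 110 and 266 CPM (ratio 0.908), *RPL41B* 88.1, 98.0, 103 and 335 CPM (0.94), *RPL39* 777, 789, 754 and 1082 CPM (0.895) and *RPL29* 597, 591, 637 and 881 CPM (0.84). In *stm1Δ* Ribo-Seq *RPP1B* had 1350 CPM in replicate 4 against 1242 to 1252 (0.908).

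*RPL35A*, with few unique windows, had 256 CPM in *wt* Ribo-Seq replicate 2 against 196 to 199 in the others (0.955), and 229 CPM in *eif2aΔ* Ribo-Seq replicate 4 against 186 to 187 (0.959). In *eif2aΔ* Ribo-Seq replicate 3 *RPL11A* had 594 CPM against 673 to 687 (0.851). In *tma46Δ* Ribo-Seq replicate 4, alone in batch 5 among its strain, the share of the members was 12.06% against 10.97% to 11.1% (0.841), and *RPL10* had 5165 CPM against 4761 to 4812 (0.874). In *wt* RNA-Seq replicate 2 *RPL18B* had 383 CPM against 353 to 358 (0.835).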

How the results depend on the processing

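The absence of calls at the FDR threshold in *tma46Δ* and the direction of the *stm1Δ* RNA-Seq and RO medians held under each alternative run, except 2 members called in *tma46Δ* Ribo-Seq with *wt* and that strain only. The number of calls in *stm1Δ* did not hold. In *stm1Δ*, ComBat-seq counts gave 77 members called for mRNA, 67 for footprints (median -0.27) and 50 for RO (median 0.27), where 68.1%, 55.4% and 46.2% of all genes were called, and 8 in each assay in *eif2aΔ* (Ribo-Seq median -0.065), where 20.7% and 17.8% were. DESeq2 gave 45 in *stm1Δ* RNA-Seq and 1 in Ribo-Seq (4.65% and 0.757% of all genes). Without a batch term there were 24 in *stm1Δ* RNA-Seq (median -0.25, 9.66% of all genes called), 1 in Ribo-Seq (-0.014) and 0 in *eif2aΔ* Ribo-Seq, with *eif2aΔ* medians of 0.012 and -0.0097. Chosen after seeing the data, the fits without a batch term and without *eif2aΔ* replicate 4 gave 52 and 1 (-0.25 and -0.014), and those without *stm1Δ* replicate 1 gave 3 and 1 (-0.24 and -0.0027). In RNA-Seq these fits called 13.3% and 6.96% of all genes. The replicate block in place of batch gave 7 and 1 in *stm1Δ* (-0.25 and -0.012) and 0 in *eif2aΔ* Ribo-Seq, with *eif2aΔ* medians of 0.011 and -0.012. Same-numbered replicates of *wt* and *tma46Δ* from one batch correlated in their deviations (r of 0.32 to 0.67 for numbers 1 to 3), and the other same-numbered replicates of *wt* and a deletion strain came from different batches. Among those others r ran from -0.31 to 0.52, and the highest was that of *stm1Δ* RNA-Seq replicate 2. Without the filter there were 2 calls in *stm1Δ* RNA-Seq and 0 in *eif2aΔ* Ribo-Seq, and TMM factors without ribosomal protein genes also gave 0 in *eif2aΔ* Ribo-Seq. With *wt* and one strain only, *eif2aΔ* RNA-Seq had 1 call, the Ribo-Seq medians were -0.018 in *tma46Δ* and -0.026 in *eif2aΔ*, and the RO medians were -0.12 and 0.070. That setting rests on the batches that hold both strains. Among members with at least 80% unique windows 35 were higher and 1 lower in *wt* Ribo-Seq, and per 1000 unique windows the median levels were 4815 and 4162. The share of all genes called is not given for the replicate block, the fits without the filter and some other counts of calls above. Those counts cannot be set against all genes. The cause of these shifts was not tested.

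With single samples left out, the median ran from -0.10 to 0.029 in *eif2aΔ* RNA-Seq, from -0.63 to -0.49 in *stm1Δ* RNA-Seq (0 to 68 calls), from -0.030 to 0.064 in *tma46Δ* Ribo-Seq, from -0.20 to -0.026 in *eif2aΔ* Ribo-Seq (0 to 3 calls) and from -0.41 to -0.26 in *stm1Δ* Ribo-Seq (0 to 4 calls). For RO it ran from -0.10 to 0.019 in *tma46Δ*, from -0.14 to 0.058 in *eif2aΔ* and from 0.10 to 0.32 in *stm1Δ*. The counts of calls in these fits are given without the share of all genes, apart from the 12.5% that goes with the 68 calls. Without *stm1Δ* replicate 1 or *eif2aΔ* replicate 4 the *stm1Δ* contrast with batch could not be fitted.

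Some uncalled members changed sign. In *stm1Δ* without a batch term (all samples, without *stm1Δ* replicate 1, without *eif2aΔ* replicate 4), *RPL41A* was at 0.17, 0.33 and 0.17 for mRNA, -0.023, -0.036 and -0.024 for footprints and -0.20, -0.36 and -0.20 for RO, and *RPL41B* at 0.25, 0.32 and 0.24 in Ribo-Seq. *RPL20B* was at 0.040, 0.059 and 0.040, *RPL2B* at 0.20, 0.24 and 0.20 and *RPL31B* at 0.15, 0.20 and 0.15 for RO. Without *stm1Δ* replicate 1, *RPL9B* was at 0.063 in RNA-Seq and *RPL29* at 0.022 in Ribo-Seq. With the replicate block, *RPL41A* was at 0.081 in RNA-Seq, *RPL41B* at 0.34 in Ribo-Seq, and *RPL20B*, *RPL2B* and *RPL31B* at 0.042, 0.21 and 0.16 for RO. ComBat-seq gave 0.040 for *RPL41B* in Ribo-Seq and 0.073 for *RPL31B* in RO. *RPL41A* in *tma46Δ* RNA-Seq was at 0.011 without batch, 0.018 with the block, 0.020 with ComBat-seq and 0.010 with *wt* and *tma46Δ* only. That last setting gave -0.0033 for *RPL35A* in RO, and its *eif2aΔ* counterpart -0.019 for *RPL14B* in RNA-Seq and 0.029 for *RPL41B* in RO.

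With single samples left out, sign changes in *tma46Δ* were those of *RPL15B* (-0.12 to 0.0031), *RPL35B* (-0.063 to 0.00095) and *RPL41A* (-0.11 to 0.13) in RNA-Seq, *RPL41A* (-0.17 to 0.015) in Ribo-Seq and *RPL15B* (-0.020 to 0.25) in RO. In *eif2aΔ* they were *RPL14B* (-0.041 to 0.20) and *RPL2B* (-0.017 to 0.12) in RNA-Seq, *RPL26A* (-0.037 to 0.10) and *RPL11B* (-0.022 to 0.14) in Ribo-Seq, and *RPL41B* (-0.58 to 0.018) and *RPL35B* (-0.021 to 0.36) in RO. In *stm1Δ* they were *RPL41B* (-0.24 to 0.094) and *RPL41A* (-0.11 to 0.27) in Ribo-Seq, and *RPL2B* (-0.14 to 0.032) and *RPL31B* (-0.20 to 0.12) in RO.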
